A study of Mus musculus with 8 samples.

Results

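Intergenic ATAC-seq peaks that lay more than 20 kb and at most 100 kb from the nearest transcription start site were examined in microglia, the resident macrophages of the brain. ATAC-seq marks open chromatin by the insertion of sequencing adapters with a transposase. Members were chosen from the deposited peak table by their annotation alone: intergenic, on chromosomes 1 to 19, at that distance from a start site, and with a detailed annotation that names neither a repeat nor a CpG island. The rule left 6392 of 67822 listed peaks, or 9.42%, and no accessibility value entered it. The other intergenic peaks on the same chromosomes, 7424 at most 20 kb from a start site and 1775 beyond 100 kb, served for comparison. There were 4 libraries from Nlrp3 knockout mice (a Cias1 knockout from Millennium Pharmaceuticals, named Nlrp3-/-) and 4 from wild-type mice of C57BL/6N background. The sources used here give neither the background of the knockout line nor the age of the mice, nor do they say whether the replicates were separate animals, so p-values measure the spread between these libraries, which may be technical in part. All libraries were made from CD11b+ cells taken from the forebrain on magnetic columns, and no treatment is given for either genotype.

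Open chromatin far from start sites often marks enhancers, stretches of DNA where transcription factors bind and from which they act on a promoter at a distance. In macrophages such sites are opened by PU.1, an ETS-family factor that defines the myeloid lineage, together with C/EBP, AP-1, IRF, RUNX and MEF2 factors. Microglia need TGF-beta and CSF1 signals to keep their identity, and much of what sets them apart from other macrophages is written in distal elements. NLRP3 is the sensor of an inflammasome, the complex that activates caspase-1 and matures IL-1β. The study deals with NLRP3 and glutamine breakdown in microglia, and here the question is which distal sites are more or less open without Nlrp3. The gene named with a member is the one with the nearest start site in the deposited annotation. Gene expression was not measured, and no link between a member and a target gene was tested.

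The libraries carried the tags of their labels at the targeted gene: a promoter peak of Nlrp3 held 1 tag in the 4 knockout libraries together and 58 to 80 tags in each wild-type library. A second promoter peak of Nlrp3 held 2 tags in the 4 knockout libraries together and 54 to 69 tags in each wild-type library. Total tags ranged from 11325865 to 15521580 per library. The share of tags in listed peaks was 6.68%, 4.96%, 20.9% and 26.2% in knockout replicates 1 to 4 and 17.5%, 9.79%, 12.8% and 14.4% in wild-type replicates 1 to 4. The median member therefore held 8, 7, 21 and 28 tags in the knockout libraries and 19, 13, 16 and 20 tags in the wild-type libraries, and knockout replicates 1 and 2 carried the least information. Promoter peaks were listed for 5 of 5 microglial markers (Sall1, P2ry12, Tmem119, Cx3cr1 and Csf1r), with a summed level of 125 to 171 in knockout and 138 to 154 in wild-type libraries, in tags per 1000000 tags in listed peaks. No promoter peak was listed for 4 neuronal, 3 astrocyte, or 3 lymphocyte and granulocyte markers. Of 4 border macrophage and monocyte markers only Mrc1 had one (2.95 to 7.04 on the same scale in knockout, 5.45 to 7.23 in wild type), and of 4 oligodendrocyte lineage markers only Olig1 (1.15 to 9.86 in knockout, 1.45 to 6.24 in wild type). Of 3 endothelial markers 2 had one, at a summed 12.6 to 21.1 in knockout and 14.9 to 20.2 in wild type. All values in CPM are tags per 1000000 tags in tested peaks after TMM scaling. In such bulk samples, fewer cells of a type and less open chromatin per cell cannot be told apart.

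The DNA letters of members could be read where a member overlapped one of the RefSeq windows that run from 250 bases before to 50 bases after a gene's start. A total of 125 members did so, and 82 of them were centred in a window each, 72 in windows of noncoding and 10 in windows of coding genes, at starts that the deposited annotation had not taken as nearest. The 6 stretches below are the parts shared by the member and its window, 5′ to 3′ on the strand of the RefSeq gene, from RefSeq on GRCm38.p6 (mm10). They show members with high levels or near genes described below, and capitals mark the letters of a searched motif, on either strand. The Irf2bpl member carries a pair of AP-1 letters (TGANTCA), those of Rab11a, Nuak2 and A530013C23Rik the PU.1 core (GAGGAAGT), that of Tnfaip3 the C/EBP letters (TTGCNNAA, here on the other strand), and that of Zfp648 AP-1 letters overlapping a longer MAF motif (TGC before the AP-1 letters).
Irf2bpl member in the Gm40491 window, chr12:86833772-86834013, minus strand: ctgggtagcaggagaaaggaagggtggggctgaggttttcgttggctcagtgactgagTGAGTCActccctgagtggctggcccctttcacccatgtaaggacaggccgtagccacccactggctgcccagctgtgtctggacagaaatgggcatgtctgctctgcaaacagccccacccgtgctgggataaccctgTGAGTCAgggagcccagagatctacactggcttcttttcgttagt
Rab11a member in the Gm36365 window, chr9:64771276-64771452, plus strand: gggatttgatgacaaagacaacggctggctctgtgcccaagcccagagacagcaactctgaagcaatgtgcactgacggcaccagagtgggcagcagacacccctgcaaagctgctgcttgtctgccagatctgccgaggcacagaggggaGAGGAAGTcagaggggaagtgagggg
Nuak2 member in the F730311O21Rik window, chr1:132341834-132342082, plus strand: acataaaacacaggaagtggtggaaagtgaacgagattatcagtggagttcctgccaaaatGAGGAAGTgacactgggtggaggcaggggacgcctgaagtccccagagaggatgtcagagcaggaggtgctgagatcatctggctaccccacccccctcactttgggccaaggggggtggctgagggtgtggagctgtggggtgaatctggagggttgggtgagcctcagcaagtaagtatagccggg
A530013C23Rik member in the Gm14321 window, chr2:167777321-167777540, plus strand: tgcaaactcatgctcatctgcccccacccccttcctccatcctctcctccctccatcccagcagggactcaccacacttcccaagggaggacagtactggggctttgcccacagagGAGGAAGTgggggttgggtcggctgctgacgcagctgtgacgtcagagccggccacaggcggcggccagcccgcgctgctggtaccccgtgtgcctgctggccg
Tnfaip3 member in the Gm51814 window, chr10:19062544-19062828, plus strand: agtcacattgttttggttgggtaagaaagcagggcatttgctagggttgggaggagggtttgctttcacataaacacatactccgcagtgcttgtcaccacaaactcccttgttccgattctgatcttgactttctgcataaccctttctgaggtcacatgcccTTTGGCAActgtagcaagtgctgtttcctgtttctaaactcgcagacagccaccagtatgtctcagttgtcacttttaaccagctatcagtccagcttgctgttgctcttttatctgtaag
Zfp648 member in the LOC108167736 window, chr1:154116133-154116432, minus strand: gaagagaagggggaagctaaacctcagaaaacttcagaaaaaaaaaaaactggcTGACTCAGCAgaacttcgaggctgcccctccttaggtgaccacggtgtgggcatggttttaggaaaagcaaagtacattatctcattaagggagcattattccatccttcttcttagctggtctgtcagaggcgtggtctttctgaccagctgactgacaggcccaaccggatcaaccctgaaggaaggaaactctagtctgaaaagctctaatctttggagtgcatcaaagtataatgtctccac

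The Irf2bpl stretch belongs to a member that held 89, 60, 225 and 319 tags in knockout replicates 1 to 4 and 188, 108, 142 and 178 tags in wild-type replicates 1 to 4. Its level was 99.5 ± 8.08 CPM in knockout and 83.3 ± 7.40 CPM in wild-type libraries (SD, n = 4 each), a log2 difference of 0.26 that did not pass (edgeR adjusted p = 1). The Rab11a member, beside the gene of a GTPase of recycling endosomes, had 71.6 ± 7.20 CPM in knockout and 73.8 ± 5.49 CPM in wild type, and its genotypes overlapped. The Nuak2 member, assigned to a stress-responsive kinase, had 48.8 ± 6.27 CPM in knockout and 51.3 ± 5.97 CPM in wild type. Among the members centred in a window, the Zfp648 member stood out by its unadjusted p of 0.00158, with 18, 19, 57 and 84 tags in knockout and 36, 25, 24 and 31 tags in wild-type replicates 1 to 4. That is 25.5 ± 2.82 CPM in knockout and 15.9 ± 2.15 CPM in wild type (log2 0.69, SE 0.20), with no overlap, but its edgeR adjusted p over all peaks was 0.399.

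Across the 82 windows centred in a member, the PU.1 core was found in 9.76%, against 3.20% of all 32851 windows of the RefSeq table, each 300 bases long, and 3.55% of the windows of listed promoter peaks. AP-1 letters stood in 13.4% of member windows and 7.81% of all windows, C/EBP letters in 15.9% and 10.8%, an IRF repeat (GAAA, any 2 bases, GAAA) in 4.88% and 3.44%, and a RUNX motif (TGTGGTTT) in 2.44% and 1.78%. The CTCF core (CC, any 3 bases, AGGGGG) stood in 7.32% of member windows and 2.41% of all windows, and the E-box (CACGTG) in 8.54% and 7.15%. In the windows of listed promoter peaks the CTCF core stood in 4.35%. The E-box stood in 10.8% of those, more than in member windows. AP-1, C/EBP, IRF and RUNX letters stood in 4.17%, 7.45%, 2.91% and 1.02% of the windows of listed promoter peaks. The longer MAF motif, which always holds the AP-1 letters, stood in 2.44% of member windows and 0.42% of all windows. No member window held the ETS motif ACCGGAAGT, the MEF2 motif (CTAAAA followed by ATAG) or the SMAD motif GTCTAGAC, which were in 1.10%, 0.11% and 0.21% of all windows. Both strands were searched. These shares are descriptions of few windows, 8 of 82 for the PU.1 core, and no test was made. Member windows were also poorer in CpG than promoters: the median was 5.5 CpG and 51.8% GC per member window, against 7 CpG and 52.7% GC in all windows and 23 CpG and 62.3% GC in the windows of promoter peaks. The rule had left out peaks annotated as CpG islands, and promoter peaks were not filtered in that way. The gap to promoter peaks was therefore fixed in part by the choice of members.

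Members thinned out with distance from the start site. Of the 6392, 3211 (50.2%) lay above 20 to 40 kb away, 1591 above 40 to 60 kb, 1034 above 60 to 80 kb and 556 above 80 to 100 kb. They lay upstream of the start site in 3751 cases (58.7%) and downstream in 2641. The rule left out peaks inside genes, and a gene's body lies downstream of its start. This balance was therefore fixed in part by the choice of members. The median width was 263 bp, and the peak lists of both genotypes held 4713 members (73.7%). A further 577 (9.03%) were in the knockout list alone, of which 168 had enough tags to be tested, and 1102 (17.2%) in the wild-type list alone, of which 575 were tested. Over all listed peaks, 75.5% were in both lists, 8.18% in the knockout list alone and 16.3% in the wild-type list alone. The members' shares were thus near those of all peaks. At the near end, the last members inside the limit were at 20001 bp (Hif1an) and 20004 bp (Hhipl2), and the first peaks outside it at 20000 bp (Mapk3) and 19997 bp (Carlr). At the far end, the members of Rxfp2 (99841 bp) and Hey1 (99915 bp) were inside, and the peaks of Pik3r1 (100049 bp) and Mir680-3 (100022 bp) outside. At the near limit, the level was 19.4 ± 2.46 CPM in knockout and 20.5 ± 3.30 CPM in wild type for Hif1an inside, and 12.6 ± 3.51 CPM in knockout and 16.5 ± 4.32 CPM in wild type for Mapk3 outside. At the far limit, the levels inside spread widely: Rxfp2 had 55.8 ± 9.28 CPM in knockout and 52.8 ± 6.36 CPM in wild type, and Hey1 5.47 ± 3.09 CPM in knockout and 5.10 ± 0.621 CPM in wild type. Pik3r1, outside, had 7.66 ± 1.96 CPM in knockout and 4.94 ± 0.998 CPM in wild type. The peaks at Hhipl2 and Mir680-3 held too few tags to be tested and have no CPM.

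**Figure D1:**
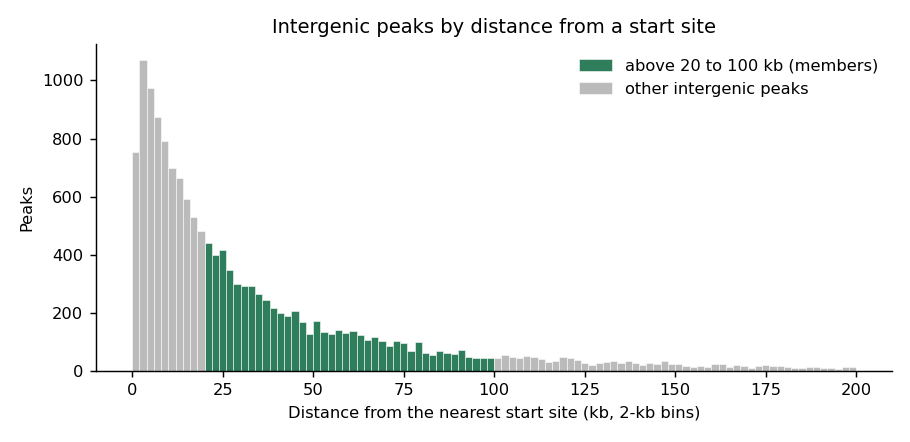
Number of intergenic peaks on chromosomes 1 to 19 (y axis) by distance in kb from the nearest start site (x axis, up to 200 kb), in bins of 2 kb, with the members in green and other intergenic peaks in grey. Counts per bin fall over the members' range, in which 50.2% of the members lie in the first 20 kb.

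The distance depends on which starts are counted. Against the RefSeq gene table of the same assembly, 4763 members (74.5%) lay outside any gene, 1107 (17.3%) inside a long noncoding RNA gene, 438 inside a protein-coding gene and 84 inside another gene. The centre of 2028 members (31.7%) was within 20 kb of a start in the RefSeq windows, and that of 275 within 1 kb, a count that holds no member of chromosome 18, where no windows were used here. The deposited annotation assigned 1329 members (20.8%) to a gene that is not protein-coding. For these the nearest body of a RefSeq protein-coding gene was a median of 63.5 kb away.

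Member levels were spread over a wide range. The 5321 tested members (83.2% of all; the rest held too few tags) had a median of 11.0 CPM, with 6.03 CPM at the 10th and 30.0 CPM at the 90th percentile, and 152 reached 50 CPM. The highest, assigned to the noncoding gene A530013C23Rik (chr2:167753912-167754216), held 130, 81, 327 and 419 tags in knockout replicates 1 to 4 and 266, 142, 186 and 254 tags in wild-type replicates 1 to 4, or 139 ± 15.6 CPM in knockout and 114 ± 14.4 CPM in wild type. Its genotypes overlapped. The next was the member at Tgfbr1, a receptor for TGF-beta (chr4:47315534-47315826), with 130 ± 5.35 CPM in knockout and 116 ± 13 CPM in wild type. By RefSeq, the nearest protein-coding gene body to that member was Col15a1, 2.37 kb away. The member at Klf2, a zinc-finger factor that restrains inflammatory genes in macrophages (chr8:72295678-72295999), had 119 ± 11.6 CPM in knockout and 115 ± 11.4 CPM in wild type. The other 5 of the 8 highest were assigned to noncoding genes: Gm19589, Gm19510, D730003I15Rik, Gm16998 and Mir5130, with means over all 8 libraries of 98.4 to 114 CPM. None of the 8 passed the test between genotypes, and their log2 differences ran from 0.04 to 0.28. By RefSeq, the nearest protein-coding gene body to the A530013C23Rik member was Cebpb, which encodes the factor C/EBPβ, 63.5 kb away, and the nearest to the Gm19510 member was Trib1, a pseudokinase that promotes breakdown of C/EBPα, 71.1 kb away.

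Taken per kb of peak, members were slightly less open than intergenic peaks nearer to a start site in every library. Summed tags per kb of member, per 1000000 tags in listed peaks, were 46.4, 46.5, 48.6 and 46.6 in knockout replicates 1 to 4 and 49.3, 46.2, 43.7 and 45.9 in wild-type replicates 1 to 4. The same level ran from 46.2 to 50.5 for intergenic peaks within 20 kb, from 40.3 to 48.5 for those beyond 100 kb and from 66.5 to 81.0 for promoter peaks. The log2 ratio of members to peaks within 20 kb averaged -0.052 (SD 0.022, n = 8 libraries) and was below 0 in 8 of 8 libraries (exact two-sided sign-flip permutation p = 0.0078, the smallest possible with 8 libraries). The ratio to peaks beyond 100 kb averaged 0.041 (SD 0.037) and was above 0 in 8 of 8 (exact p = 0.0078). In knockout replicate 3 that ratio was only 0.0018, and with the median over peaks in place of the sum its mean was 0.016 (exact p = 0.375), so this second difference was not called with that summary.

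**Figure D2:**
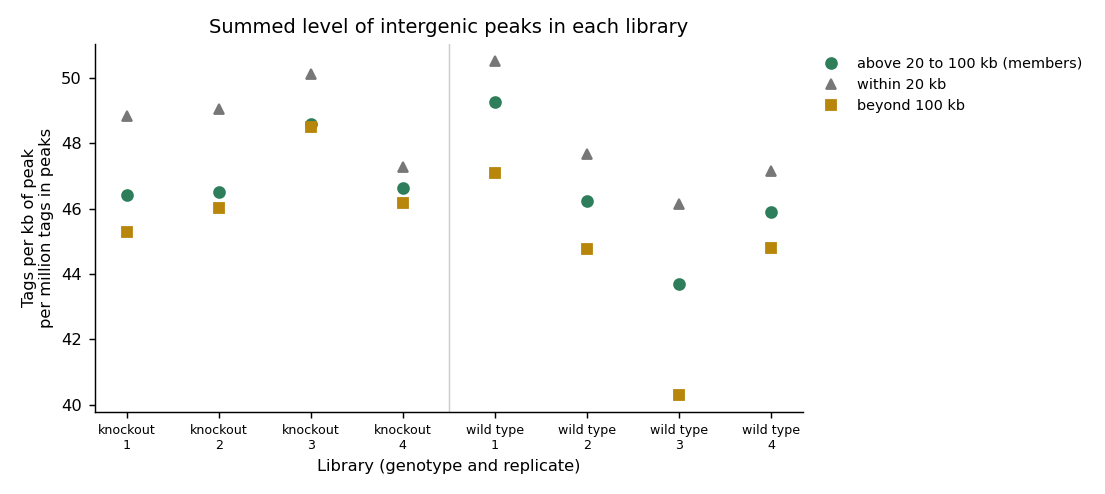
Summed tags per kb of peak per 1000000 tags in listed peaks (y axis, which does not start at 0) for members and for intergenic peaks at most 20 kb and beyond 100 kb from a start site, with 1 point per group of peaks in each of the 4 knockout and 4 wild-type libraries (x axis). Members lie below the nearer peaks and above the farther ones in each library, with the smallest gap to the farther ones in knockout replicate 3.

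The part of the accessible signal held by members did not differ between genotypes beyond the spread of the libraries. Members took 8.29%, 8.31%, 8.68% and 8.33% of the tags in listed peaks in knockout replicates 1 to 4, and 8.81%, 8.26%, 7.81% and 8.20% in wild-type replicates 1 to 4. The means were 8.40% ± 0.186 in knockout and 8.27% ± 0.410 in wild type (SD, n = 4 each). The difference of 0.135 percentage points did not exceed the spread (exact two-sided permutation p = 0.514). Single libraries moved it: without wild-type replicate 1 it was 0.314 points (exact permutation p = 0.0286, the smallest that 4 against 3 allow), without knockout replicate 3 it was 0.043 points, and without wild-type replicate 3 it was -0.018 points.

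Members came in runs. With members at most 10 kb apart joined, there were 3627 runs, of which 2313 held 1 member and 188 held 5 or more, and 63.8% of members had another within that gap. The run with the most members held 23 over 48.5 kb on chromosome 17, assigned to 4933433H22Rik and Zfp36l2, the gene of an RNA-binding protein that speeds mRNA decay. Others with 15 to 19 members were found at A530013C23Rik (19), Pisd-ps2 (18), D730003I15Rik with Nenf (16), Irf2bpl with Lrrc74a (16), Psd2 (16) and Irf8 (15). No tested member of these 7 runs passed between genotypes (22, 18, 17, 16, 15, 16 and 10 tested, in the order given). Over all tested peaks 0.17% passed, so 0 calls among so few members do not set these runs apart. In all, 2672 genes had a member, 1344 of them a single one, while 347 genes with 5 or more held 38.8% of the members.

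The 6 genes with the most members were A530013C23Rik and Irf8 with 23 each, 4933433H22Rik, A630001O12Rik and Irf2bp2 with 19 each, and Gm17746 with 18. Irf8 encodes an interferon regulatory factor required for microglial development, and Irf2bp2 a repressor that partners IRF2. The nearest protein-coding gene to the highest member of A630001O12Rik was also Irf2bp2 (164 kb), and that to the highest member of Gm17746 was Id2, an inhibitor of basic helix-loop-helix factors (118 kb). The members of A530013C23Rik lay 24.9 to 94.9 kb downstream of its start and summed to 671, 669, 575 and 625 CPM in knockout and 591, 543, 535 and 529 CPM in wild-type replicates 1 to 4. The genotypes overlapped in knockout replicate 3, and 0 of its 22 tested members passed (lowest edgeR adjusted p = 0.943). The 3 tallest of these members, at 62.9, 84.2 and 69.0 kb, had 139 ± 15.6, 104 ± 12.2 and 79.4 ± 13.3 CPM in knockout and 114 ± 14.4, 85.4 ± 7.48 and 67.0 ± 4.90 CPM in wild type.

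The Irf8 members were lower and spread on both sides of the gene, 4 upstream and 19 downstream, from 20.2 to 93.6 kb away. They summed to 216 ± 8.04 CPM in knockout and 214 ± 16.0 CPM in wild type. The highest, 20.96 kb upstream, had 26.5 ± 5.65 CPM in knockout and 30.4 ± 5.36 CPM in wild type, and a group 52.2 to 57.8 kb downstream reached 19.6 ± 4.97 CPM in knockout and 22.5 ± 4.44 CPM in wild type. None of the 18 tested Irf8 members passed. The summed levels of the other 4 genes differed by less than their SD, with 424 ± 28.6 CPM in knockout and 415 ± 30.03 CPM in wild type at 4933433H22Rik, and 345 ± 22 CPM in knockout and 345 ± 36.3 CPM in wild type at Gm17746.

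**Figure D3:**
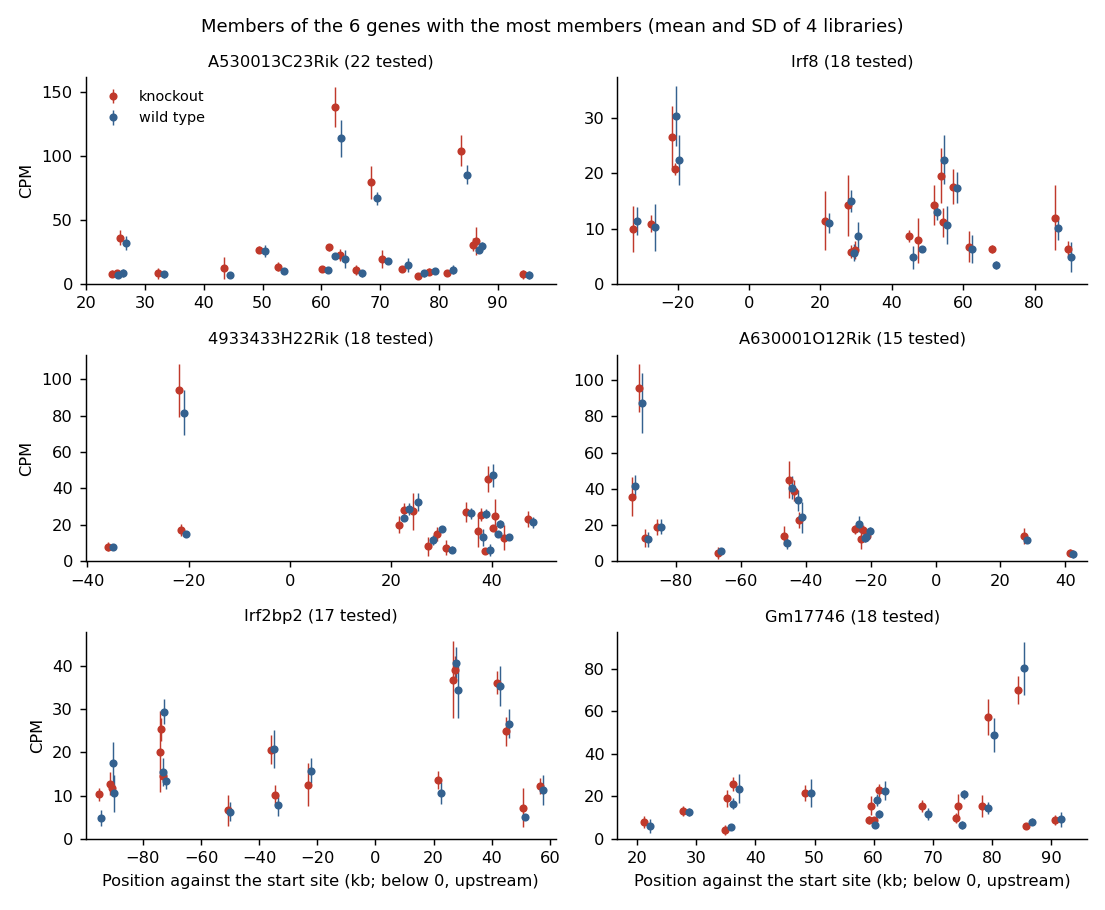
CPM of each tested member (y axis) against its position in kb from the start site of the gene it is assigned to (x axis, below 0 upstream) for the 6 genes with the most members, with the mean and SD of 4 knockout libraries in red and 4 wild-type libraries in blue, each pair set slightly apart for legibility. A few tall members stand among many low ones at each gene, and none of the members shown passed the test between genotypes.

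Few members changed between genotypes. Of the 5321 tested members 12 passed, 3 higher and 9 lower in the knockout, or 0.226% (edgeR quasi-likelihood F test, Benjamini-Hochberg adjusted p under 0.05 over all peaks). Over all 58135 tested peaks 99 passed, or 0.17%, with 0.055% higher and 0.115% lower, so the members' share was near the background. An unadjusted p under 0.05 was found for 282 members (5.30%) and for 4.83% of all tested peaks. The genotypes did not overlap in 183 members (3.44%; 104 higher and 79 lower in the knockout) and in 3.17% of all tested peaks. The median log2 difference, knockout over wild type, was 0.025 over tested members and 0.0037 over all tested peaks. The members' median was -0.0012 without knockout replicate 3, 0.0013 without wild-type replicate 3 and 0.118 when libraries were scaled to all their tags. Over all tested peaks the median in these 3 settings was -0.0059, 0.0035 and 0.099, so the shift with scaling to all tags was not particular to members. In the main fit the median was 0.019 for intergenic peaks within 20 kb, 0.083 for those beyond 100 kb and -0.065 for promoter peaks. The count of 12 was 9 with DESeq2, 7 without knockout replicate 3, 6 (all lower) without wild-type replicate 3, 26 (6 higher and 20 lower) without knockout replicates 1 and 2, and 1 (lower) when libraries were scaled to all their tags.

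**Figure D4:**
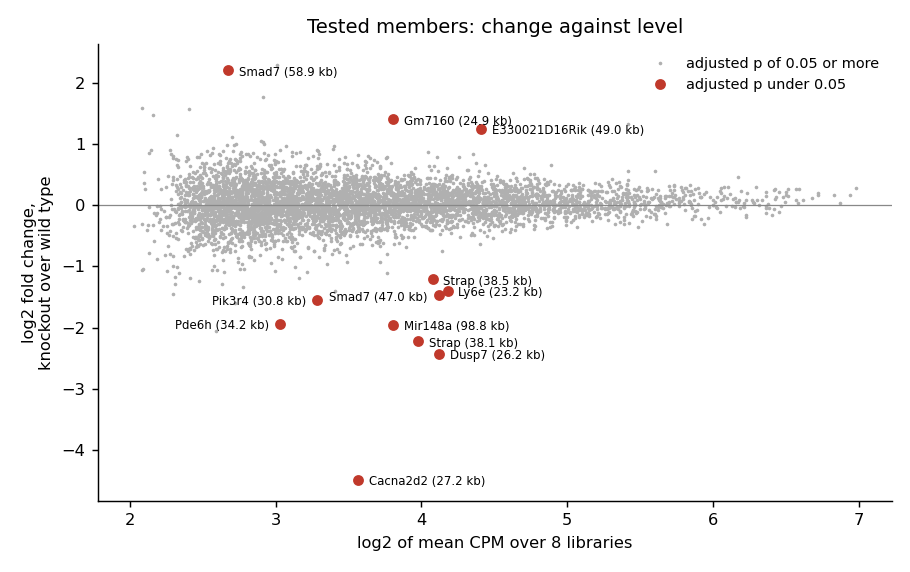
Log2 fold change of knockout over wild type (y axis) against the log2 of the mean CPM over 8 libraries (x axis) for the 5321 tested members, with the 12 that passed in red, each labelled with its gene and its distance from the start site. Members with high levels lie close to 0, and 9 of the 12 that passed lie below it.

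The 12 changed members lay on 5 chromosomes, 5 of them on chromosome 6, 3 on chromosome 9, 2 on chromosome 18 and 1 each on chromosomes 1 and 15. Of the 12, 10 (83.3%) had another changed peak of any kind within 2 Mb, as did 82 of all 99 changed peaks (82.8%). The background of the knockout line is not given in the sources used here, so a difference in background and the Nlrp3 genotype cannot be told apart. By distance, 8 of 2691 tested members above 20 to 40 kb passed, 3 of 1325 above 40 to 60 kb, 0 of 837 above 60 to 80 kb and 1 of 468 above 80 to 100 kb. Upstream of the start site lay 6 of the 12, and downstream the other 6. Of the 9 that were lower, 6 were in the peak lists of both genotypes and 3 in the wild-type list only. Of the 3 that were higher, 2 were in both lists and 1 in the knockout list only. These lists came from the same libraries as the test. By RefSeq, 3 of the 12 lay inside long noncoding RNA genes (the Dusp7, E330021D16Rik and Ly6e members) and 9 outside any gene. All 12 differed more than 2-fold, and the genotypes overlapped in 1, at Ly6e.

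The member with the largest change was at Cacna2d2, which encodes a subunit that helps bring voltage-gated calcium channels to the cell surface (chr9:107372546-107372792). It held 1, 4, 1 and 0 tags in knockout replicates 1 to 4 and 52, 34, 32 and 41 tags in wild-type replicates 1 to 4. The 4 tags of knockout replicate 2, the library with the fewest tags in peaks, correspond to 5.91 CPM, so the site was nearly closed in the other 3 and low in that one (log2 -4.49, SE 0.48, edgeR adjusted p = 3.86e-06). Of the 12 changed members it alone passed in each of the 16 alternatives. Both other tested peaks within 50 kb had negative log2 differences and neither passed.

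The Dusp7 member lay 26.2 kb downstream of the start of that gene, which encodes a phosphatase of MAP kinases (chr9:106394674-106394948). It held 5, 2, 11 and 20 tags in knockout and 57, 43, 50 and 68 tags in wild-type replicates 1 to 4, or 5.07 ± 1.57 CPM in knockout and 29.7 ± 1.59 CPM in wild type (log2 -2.43, SE 0.24, edgeR adjusted p = 9.99e-07). Every wild-type library was far above every knockout library. Within 50 kb, 2 further peaks assigned to Dusp7 fell: an intronic one 22.8 kb away with 30.7 CPM in knockout and 55.2 CPM in wild type (log2 -0.90, edgeR adjusted p = 0.0115), and an intergenic one 8.33 kb away with 36.6 CPM in knockout and 69.7 CPM in wild type (log2 -0.85, edgeR adjusted p = 0.0240). The Pik3r4 member, on the same chromosome (chr9:105612016-105612333), was assigned to the gene of the regulatory subunit of the class III phosphoinositide 3-kinase. It held 5, 3, 14 and 11 tags in knockout and 28, 17, 37 and 23 tags in wild-type replicates 1 to 4 (log2 -1.55, SE 0.31, edgeR adjusted p = 0.0261). It lost the call without knockout replicate 3 or 4 or wild-type replicate 1 or 3 (adjusted p 0.0543 to 0.251), and also with DESeq2.

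On chromosome 6, 2 changed members were neighbours, 32 bp apart and about 38 kb upstream of Strap, which encodes a WD-repeat protein that binds TGF-beta receptors. The one at chr6:137696814-137697175 held 5, 3, 15 and 15 tags in knockout and 56, 35, 46 and 55 tags in wild-type replicates 1 to 4, or 5.48 ± 1.00 CPM in knockout and 26.1 ± 1.36 CPM in wild type (log2 -2.22, SE 0.24, edgeR adjusted p = 4.12e-06). The one at chr6:137696393-137696782 held 9, 12, 21 and 22 tags in knockout and 45, 32, 40 and 48 tags in wild-type replicates 1 to 4, or 11.2 ± 4.59 CPM in knockout and 22.5 ± 0.188 CPM in wild type (log2 -1.21, SE 0.24, edgeR adjusted p = 0.0234). The second lost the call without any of 6 libraries, the exceptions being knockout replicates 1 and 2 (adjusted p 0.0619 to 0.228), and with DESeq2 (0.148). Its call was also lost when only peaks with a mean of at least 20 tags were fitted.

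The Mir148a member was the most distant of the 12, 98.8 kb downstream of the start of that microRNA gene (chr6:51170957-51171233). It held 10, 2, 12 and 13 tags in knockout and 45, 33, 52 and 26 tags in wild-type replicates 1 to 4 (log2 -1.95, SE 0.32, edgeR adjusted p = 0.00281). The genotypes nearly met: the highest knockout library, replicate 1, and the lowest wild-type library, replicate 4, were both at 12.1 CPM. A second member 1.98 kb away had 10.1 CPM in knockout and 17.1 CPM in wild type without passing (log2 -0.79, edgeR adjusted p = 0.540). The Pde6h member (chr6:136988562-136988857), assigned to the gene of a subunit of the cone photoreceptor phosphodiesterase, held 5, 1, 5 and 12 tags in knockout and 25, 20, 13 and 38 tags in wild-type replicates 1 to 4 (log2 -1.93, SE 0.36, edgeR adjusted p = 0.0123). It lost the call without knockout replicate 3 (edgeR adjusted p = 0.138) or wild-type replicate 4 (0.103). The other changed peak within 50 kb, in an intron of Pde6h 27.1 kb away, went the opposite way, with 11.5 ± 2.51 CPM in knockout and 1.69 ± 0.947 CPM in wild type (log2 2.65, edgeR adjusted p = 0.00133). The E330021D16Rik member (chr6:136464379-136464669), by contrast, was higher, with 18, 18, 71 and 120 tags in knockout and 37, 9, 23 and 29 tags in wild-type replicates 1 to 4, or 29.6 ± 7.27 CPM in knockout and 12.8 ± 4.96 CPM in wild type (log2 1.25, SE 0.24, edgeR adjusted p = 0.0142). It lost the call without knockout replicate 3 or 4 or wild-type replicate 2, 3 or 4 (adjusted p 0.0679 to 0.122).

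The members at Smad7, the gene of an inhibitor of TGF-beta signalling, changed in both directions 11.6 kb apart on chromosome 18. The nearer, 47.0 kb downstream of the Smad7 start (chr18:75414241-75414469), held 6, 4, 26 and 30 tags in knockout and 71, 33, 40 and 50 tags in wild-type replicates 1 to 4, or 8.57 ± 2.47 CPM in knockout and 26.1 ± 6.11 CPM in wild type (log2 -1.47, SE 0.24, edgeR adjusted p = 0.00213). The farther, 58.9 kb downstream (chr18:75426082-75426357), held 10, 6, 20 and 36 tags in knockout and 3, 8, 3 and 2 tags in wild-type replicates 1 to 4, or 10.3 ± 1.76 CPM in knockout and 2.44 ± 2.15 CPM in wild type (log2 2.20, SE 0.42, edgeR adjusted p = 0.0133). The nearest protein-coding gene body to both was Ctif, 16.7 kb and 4.85 kb away. The farther lost the call without knockout replicate 3 or 4 or wild-type replicate 1, 3 or 4 (adjusted p 0.0561 to 0.109), and the nearer kept it without any single library. Of 22 other tested peaks within 50 kb of the farther member, the nearer member alone passed.

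Of the remaining changed members, that at Gm7160 (chr1:105965183-105965566) was higher, with 21, 15, 37 and 56 tags in knockout and 14, 16, 9 and 14 tags in wild-type replicates 1 to 4, or 20.5 ± 4.08 CPM in knockout and 7.46 ± 2.64 CPM in wild type (log2 1.40, SE 0.26, edgeR adjusted p = 0.0122). It lost the call without wild-type replicate 1, 3 or 4 (edgeR adjusted p 0.0567 to 0.0882). The Ly6e member (chr15:74931669-74931952), assigned to an interferon-induced surface protein gene, was lower, with 18, 4, 19 and 23 tags in knockout and 64, 25, 58 and 41 tags in wild-type replicates 1 to 4 (log2 -1.39, SE 0.29, edgeR adjusted p = 0.0386). Knockout replicate 1, at 21.7 CPM, was above wild-type replicate 2 at 17.6 CPM. A pair of peaks at the Ly6e start, a promoter peak and a 5′ UTR peak, had log2 differences of -1.02 and -1.45 without passing (edgeR adjusted p = 0.625 and 0.291). The Ly6e member lost the call without knockout replicate 2, 3 or 4 or wild-type replicate 1 or 3 (adjusted p 0.0731 to 0.316) and with DESeq2 (0.101). Its call was also lost when only peaks with a mean of at least 20 tags were fitted.

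**Figure D5:**
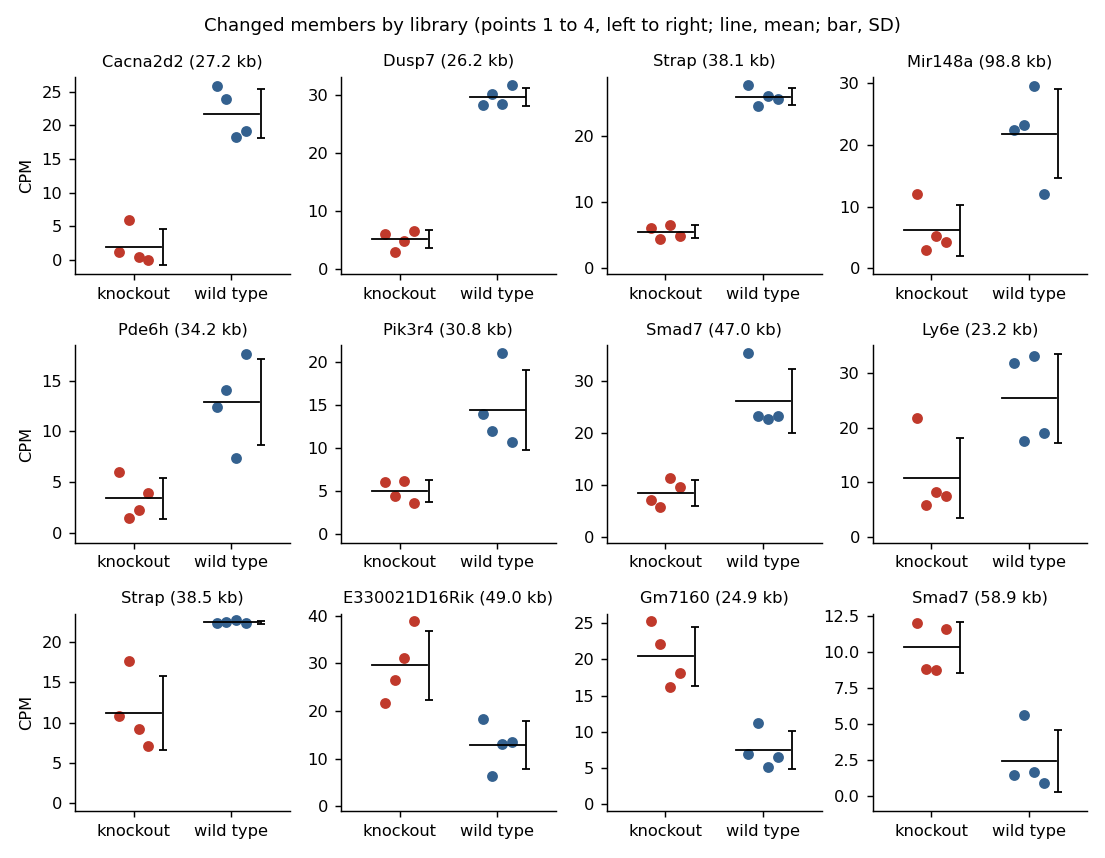
CPM of the 12 changed members in each library (y axes, CPM), with knockout libraries in red left of wild-type libraries in blue, replicates 1 to 4 from left to right, black lines for the mean and bars for the SD of 4 libraries. Panels run from the lowest to the highest log2 fold change, and the genotypes are apart in each panel except that of Ly6e, touching in that of Mir148a.

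The 5 members next in line did not pass. The closest was at Papd7, the gene of a noncanonical poly(A) polymerase, with 1, 5, 54 and 62 tags in knockout and 3, 3, 1 and 17 tags in wild-type replicates 1 to 4 (log2 2.29, edgeR adjusted p = 0.0544). Knockout replicates 3 and 4 alone were high there, and it passed without wild-type replicate 4 (0.00478), without knockout replicate 1 (0.00361) and without knockout replicate 2 (0.0204), as it did without knockout replicates 1 and 2 and with the replicate block. The member at Smad3, the transducer of TGF-beta signals, had 4, 4, 3 and 2 tags in knockout and 9, 23, 14 and 15 tags in wild-type replicates 1 to 4 (log2 -2.05, edgeR adjusted p = 0.239), and passed without knockout replicates 1 and 2 (0.00561). Those at Tmem181b-ps (log2 1.76), Mir1932 (1.57) and Eps8, an adaptor of the actin cytoskeleton (-1.19), had edgeR adjusted p-values of 0.0825, 0.244 and 0.148. The Tmem181b-ps member passed with robust moderation, with the replicate block and without knockout replicate 4 (lowest edgeR adjusted p = 0.0266, highest over all alternatives 1.00), and those at Mir1932 and Eps8 passed under no alternative run.

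In the lists of microglial, signalling and other cell type genes, the pair at Smad7 were the only calls. Over all tested peaks 0.17% passed and 4.83% had an unadjusted p under 0.05 (edgeR). With lists this small, 0 calls do not set a list apart from those shares. The 9 calls of DESeq2 all lay among the 12 members called with edgeR, so it called no list member outside Smad7 either. The list of 18 myeloid and microglial transcription factors had 88 members at 12 genes, led by Irf8 (23), Mef2a (14), Bach2 (12), Runx1 (9), Maf (8), Cebpa (6) and Fli1 (6). Of these 75 were tested and 0 passed with edgeR (3 had an unadjusted p under 0.05), and their median log2 difference was 0.050. The highest, at Mef2a, a factor of microglial enhancers (chr7:67461898-67462223), had 92.9 ± 4.48 CPM in knockout and 78.3 ± 16.6 CPM in wild type. By RefSeq, the nearest protein-coding gene body to that member was Lrrc28, 51.2 kb away. The Mef2a members stood 42.2 to 91.9 kb upstream of the start and summed to 383 ± 33.1 CPM in knockout and 361 ± 29.6 CPM in wild type, with the libraries of both genotypes overlapping. The list of TGF-beta and CSF1 signalling had 29 members at 7 of 14 genes, 25 of them tested. The pair at Smad7 described above were its 1 higher and 1 lower call, beside a median of -0.011. Its highest member was the one at Tgfbr1.

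In the homeostatic list, 13 members at 6 of 17 genes, 12 of them tested, had a median log2 difference of -0.040 and 0 calls (0 with an unadjusted p under 0.05). The highest was at Sparc, a secreted matrix protein of microglia, with 30.6 ± 6.06 CPM in knockout and 27.3 ± 2.29 CPM in wild type, while the member of smallest p was 90.1 kb upstream of Sall1, a factor of microglial identity, with 9.37 ± 3.64 CPM in knockout and 7.22 ± 2.79 CPM in wild type. In the disease-associated list, 12 members at 4 of 18 genes (Cd9, Fabp5, Lgals3 and Lpl) gave 0 calls among 10 tested (2 with an unadjusted p under 0.05; median -0.0084). The Lgals3 member, beside the galectin-3 gene, had 28.6 ± 5.55 CPM in knockout and 27.3 ± 2.94 CPM in wild type. In the immediate early and stress list, 34 of 37 members were tested and 0 passed (2 with an unadjusted p under 0.05; median 0.016), and its lowest p was at a Fos member with 8.02 ± 0.666 CPM in knockout and 3.87 ± 2.83 CPM in wild type (edgeR adjusted p = 0.976).

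In the list of inflammatory cytokine, NF-kB and inflammasome genes, 36 of 38 members were tested and 0 passed (3 with an unadjusted p under 0.05; median 0.065). The highest was at Tnfaip3, which encodes the NF-kB inhibitor A20 (chr10:19062043-19062274), with 87, 74, 223 and 248 tags in knockout and 193, 122, 129 and 164 tags in wild-type replicates 1 to 4, or 98.1 ± 12.8 CPM in knockout and 82.9 ± 10.2 CPM in wild type, with overlap. The C/EBP stretch printed above is its neighbour 270 bp away, with 19.3 ± 4.59 CPM in knockout and 23 ± 2.55 CPM in wild type. The smallest p was at Nfkbia, the gene of the inhibitor IκBα (chr12:55466332-55466660), where 3, 3, 3 and 15 tags in knockout stood against 17, 19, 13 and 13 tags in wild-type replicates 1 to 4. That is 3.55 ± 1.58 CPM in knockout and 8.81 ± 3.18 CPM in wild type with no overlap, but the edgeR adjusted p was 0.575.

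In the list of glutamine, glutamate and alpha-ketoglutarate genes, which bears on the topic of the study, 33 members at 10 of 25 genes had a median log2 difference of -0.00099, and 0 of 28 tested passed (2 with an unadjusted p under 0.05). The highest was at Slc7a5, an exchanger of large neutral amino acids for glutamine (chr8:121877311-121877571), with 56.1 ± 11.9 CPM in knockout and 50.9 ± 6.54 CPM in wild type. The smallest p was at Tet2, an alpha-ketoglutarate-dependent enzyme that oxidises methylcytosine (chr3:133626723-133626983), with 3.76 ± 1.84 CPM in knockout and 7.34 ± 0.977 CPM in wild type (log2 -1.25, edgeR adjusted p = 0.675). Its genotypes were apart by a narrow margin, the highest knockout library at 6.03 CPM and the lowest wild-type library at 6.06 CPM. In the phagocytosis and lipid list, 11 of 11 members were tested and 0 passed (2 with an unadjusted p under 0.05; median -0.019), the smallest p being at Plin2, a lipid droplet protein gene, with 4.12 ± 1.24 CPM in knockout and 7.96 ± 1.66 CPM in wild type (edgeR adjusted p = 0.745).

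In the lists of other cell types, 0 members passed. The astrocyte list had 6 members at 3 of 10 genes, with a median log2 difference of 0.14 over 5 tested (1 with an unadjusted p under 0.05). That one, 91.1 kb upstream of Slc1a3, the glial glutamate transporter (chr15:8801702-8802045), held 58, 13, 48 and 398 tags in knockout and 55, 33, 41 and 62 tags in wild-type replicates 1 to 4. In CPM, knockout replicates 4 (129) and 1 (69.98) were high, and knockout replicates 2 (19.2) and 3 (21.1) lay below all wild-type libraries (23.2 to 28.9), so the group was split (log2 1.33, edgeR adjusted p = 0.266). It passed without knockout replicate 2 (edgeR adjusted p = 0.0298) or 3 (0.0100), and without knockout replicate 4 its log2 difference was 0.40 (0.902). The other high Slc1a3 member (chr15:8627072-8627438) had 43.6 ± 7.92 CPM in knockout and 42.4 ± 7.97 CPM in wild type. The border macrophage and monocyte list had 4 members and a median log2 difference of -0.11. The highest was at Ly6c2 with 97.7, 146, 26.3 and 34.0 CPM in knockout and 44.7, 108, 72.8 and 68.9 CPM in wild-type replicates 1 to 4, a spread that did not follow genotype. Knockout replicates 1 and 2 and wild-type replicate 2 were highest there, with the smallest shares of tags in peaks (6.68%, 4.96% and 9.79%). Knockout replicates 3 and 4 were lowest, with the largest shares (20.9% and 26.2%). Whether this spread reflects the libraries or the cells was not tested. The endothelial list had 6 members (4 tested, median -0.071), the oligodendrocyte list 2 (median -0.14), the neuron list 3 (1 tested, 0.053) and the granulocyte and lymphocyte list 0. In these 4 lists and the border macrophage list, 0 tested members had an unadjusted p under 0.05.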

How the data were processed

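Open chromatin was profiled by ATAC-seq in 8 microglial libraries, 4 per genotype. Per the labels' protocols, fragments between 165 and 250 bp were cut from a gel, and single ends were read over 51 cycles. Bowtie2, HOMER, DESeq2 and the mm10 build are named, with no versions, per the submitters' processing notes. The deposited table holds counts made by the authors: whole tags per peak over a merged list of wild-type and knockout IDR peaks (peaks that rank alike between replicates), with at most 3 tags per position, per the file headers. Read shifting and duplicate removal are not described in those sources.

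Members were taken from the deposited annotation. Counts of all peaks were fitted with edgeR 4.0.16 (R 4.3.3; quasi-likelihood F test, TMM scaling, filterByExpr with a minimum count of 10, Benjamini-Hochberg over all peaks), with genotype as the only term, after a check on simulated counts. DESeq2 1.42.0 was an alternative. Shares per library were compared by an exact permutation test over 70 arrangements, and levels per kb by exact sign flips. No 2 libraries were duplicates: chi-square per degree of freedom was at least 1.21.

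The members and gene lists were chosen with earlier results of these data known. One marker is not reported here and was left out of its lists. Named members were all that passed, the 8 highest, the 6 genes with most members, the highest and the smallest p of each list, the peaks at the distance limits and the next 5 by p. The Zfp648 member, the other printed stretches and the neighbours of changed members were chosen after their values were seen. With no genome sequence in hand, motifs were read in RefSeq windows only.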

Additional observations from a re-analysis of the deposited data

Results flagged for a closer look

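In 7 of 118 groups of 4 libraries checked, 1 library stood farther from the others than Dixon's 95% limit for 4 values, and chance alone gives about 1 in 20. In knockout replicate 3 members took 8.68% of peak tags (8.29 to 8.33% in the remaining knockout libraries). At Smad7, wild-type replicate 1 was at 35.3 CPM for the nearer changed member (22.8 to 23.3 in the other wild-type libraries), and wild-type replicate 2 at 5.62 CPM for the farther one (0.93 to 1.71). The Ly6e member was at 21.7 CPM in knockout replicate 1 (5.91 to 8.34 in the others). The Plin2 member was at 10.4 CPM in wild-type replicate 1 (6.99 to 7.40), and the highest Slc7a5 member at 38.4 CPM in knockout replicate 2 (59.5 to 63.7). The summed members of Irf2bp2 were at 263.5 CPM in wild-type replicate 3 (316 to 323).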

How the results depend on the processing

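The count of changed members, 12, was 9 with DESeq2, 12 with RLE scaling, 14 without a filter, 13 with robust moderation and 9 for members 25 to 95 kb from a start site. It moved to 1 with scaling to all tags, where the 11 others had an edgeR adjusted p of 1, to 7 with a mean of at least 20 tags, and to 26 without knockout replicates 1 and 2, of which 12 were the same members. Over all tested peaks the count of 99 moved to 19 with scaling to all tags and to 42 with a mean of at least 20 tags. It moved to 246 without knockout replicates 1 and 2, and to 65 to 123 without each library in turn. For members, leaving out each library in turn gave 6 to 13. With the replicate block it was 15, holding all 12, and the count over all tested peaks was 140. The labels do not say that the numbers pair the libraries, and the main fit did not pair them. Same-numbered libraries deviated together with correlations from -0.0077 to 0.15, and other pairs with correlations from -0.12 to 0.087. The highest values, 0.15 and 0.095, were those of replicates 4 and 2, so these ranges do not settle whether the libraries were paired. The difference in members' share of peak tags ran from -0.018 (without wild-type replicate 3) to 0.314 points (without wild-type replicate 1); under the replicate block its exact p was 0.625. The ratio to peaks within 20 kb kept its direction and call under all alternatives run, and that to peaks beyond 100 kb under all but the median over peaks (0.016). Of 29 named members refitted, the sign turned for Olig1 (-0.37; left-out libraries gave -0.66 to 0.020) and Snap25 (0.053; -0.11 to 0.16), neither near the threshold. The cause of these shifts was not tested. The shallowest libraries, knockout replicates 1 and 2, had medians of 8 and 7 tags per member.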

Other observations

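The Vmn1r2 run of members varied less between libraries as a share of all tags than as a share of tags in peaks. The 13 members assigned to Vmn1r2, a vomeronasal receptor gene, at the start of chromosome 4 held 27.4, 29.3, 32.9 and 37.2 tags per 1000000 of all tags in knockout replicates 1 to 4 and 38.5, 28.4, 32.2 and 25.3 in wild-type replicates 1 to 4. Per 1000000 tags in peaks the same members held 410, 590, 157 and 142 in knockout and 220, 290, 251 and 175 in wild-type libraries, highest in knockout replicates 1 and 2, which had the smallest shares of tags in peaks. The 18 members assigned to Pisd-ps2, at the start of chromosome 17, held 217, 359, 123 and 95.01 per 1000000 tags in peaks in knockout and 138, 139, 193 and 110 in wild-type libraries. None of the tested members of Pisd-ps2 passed between genotypes (lowest edgeR adjusted p = 0.962).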
